A study of Rattus norvegicus with 17 samples.

Results

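The transcripts of 10 genes of Toll-like receptor and NF-kB signalling were followed in the hippocampus of adolescent Long-Evans rats whose mothers had received ethanol, a matched liquid diet or chow during pregnancy. The genes were taken by symbol from a list of pathway members, and all 10 were found among the 34322 genes of the count table: the receptors Tlr2, Tlr3, Tlr4, Tlr7 and Il1r1, the ligand Hmgb1, the adaptor Myd88, the NF-kB subunits Nfkb1 and Rela, and the inhibitor Nfkbia. All 10 also passed the filter on low counts in every comparison. RNA from 17 hippocampi, collected at 36 to 38 days of age, was sequenced as stranded mRNA libraries. The ET group (n = 5) came from a dam on a liquid diet with 6.7% ethanol, which supplied 36% of its calories, from gestational day 0 to 20. The PF group (n = 6) came from a dam pair-fed the control liquid diet without ethanol, and the AD group (n = 6) from a dam with free access to chow. Each group was the offspring of 1 litter, so that diet and litter cannot be told apart and every p-value below measures the spread between littermates.

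Toll-like receptors detect microbial products and molecules released by damaged cells. Most of them, and the interleukin-1 receptor, signal through the adaptor MyD88 to the IkB kinases, which remove the IkB inhibitor so that NF-kB dimers such as p50 and p65 enter the nucleus and switch on inflammatory genes. In the brain these receptors are best known from microglia, the resident macrophages, and ethanol has been studied as an activator of the pathway there. The transcript of Nfkbia is itself an NF-kB target, which closes a negative feedback loop.

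To show where NF-kB could recognise the members' own promoters, RefSeq windows of the rat assembly GRCr8, from 250 bases before to 50 bases after each start, were searched on both strands for the kB decamer, which reads GGG, a purine, any 2 bases, 2 pyrimidines and CC. Overlapping matches were merged into 1. A match was present in 4 of the 10 members (40%), in 18 of the 63 other pathway genes with a window (28.6%) and in 2515 of all 33469 windows (7.51%). These shares are a description, and a match is not a binding site. The count table was made on another assembly (mRatBN7.2), so the positions below apply to GRCr8 alone. In each of the 4 genes the start that was used lies inside the span listed for the gene, so other transcripts may begin further upstream. Parts of the windows with a match are printed 5′ to 3′ because Tlr2, Il1r1, Nfkb1 and Nfkbia differ in where the matches lie, and capitals mark the matches. For Tlr2, Il1r1 and Nfkbia these are the 250 bases before the start, and for Nfkb1 30 bases around the match.
Tlr2, chr2:171504558-171504807, minus strand: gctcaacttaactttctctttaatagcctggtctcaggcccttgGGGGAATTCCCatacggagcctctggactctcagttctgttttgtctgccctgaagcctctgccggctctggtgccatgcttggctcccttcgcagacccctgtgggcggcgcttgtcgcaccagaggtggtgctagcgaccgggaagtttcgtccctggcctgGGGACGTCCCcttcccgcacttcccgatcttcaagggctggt
Il1r1, chr9:50034133-50034382, plus strand: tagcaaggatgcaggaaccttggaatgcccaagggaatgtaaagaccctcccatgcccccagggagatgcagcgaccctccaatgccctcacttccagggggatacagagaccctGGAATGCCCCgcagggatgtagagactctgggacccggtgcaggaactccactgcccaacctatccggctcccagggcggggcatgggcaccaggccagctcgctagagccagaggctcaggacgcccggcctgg
Nfkb1, chr2:226805440-226805469, minus strand: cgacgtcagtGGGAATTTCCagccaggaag
Nfkbia, chr6:78597073-78597322, minus strand: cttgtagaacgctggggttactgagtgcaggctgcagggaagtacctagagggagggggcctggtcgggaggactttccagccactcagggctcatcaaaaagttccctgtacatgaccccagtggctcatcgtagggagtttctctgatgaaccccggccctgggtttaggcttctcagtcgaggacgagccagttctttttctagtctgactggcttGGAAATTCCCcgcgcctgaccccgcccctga

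The Tlr2 window held a match at -206 to -196, counted from the start, and another at -42 to -33. That of Il1r1 lay at -135 to -126, that of Nfkbia at -31 to -22 and that of Nfkb1 at 4 to 13 after the start. In the windows of Tlr3, Tlr4, Tlr7, Hmgb1, Myd88 and Rela these letters were not found, which says nothing about regulation outside them.

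The libraries held 10853947 to 17498392 assigned fragments, with a median of 13538433. Summed markers of hippocampal neurons ranged from 36763 to 45509 normalized counts over all 17 libraries. Following the study, 3 libraries were left out of the main comparisons, namely ET replicate 2, the PF animal 11f6 and AD replicate 4, and 14 remained. Summed markers of choroid plexus epithelium reached 98604 to 125582 in these 3. Among the 14, AD replicate 6 stood apart in the sum of 5 pineal gland markers, at 13804 against 12.8 to 110.2 in the other 16 libraries. Most of the remaining libraries were from the left hippocampus, and 4 of the 17 were from the right, namely ET replicate 2, PF replicates 1 and 6 and AD replicate 3. The sex labels of 2 AD libraries went against their Y-linked counts, those of the ET and PF libraries did not, and sex was therefore compared without the AD group. Values below are normalized counts, the deposited counts scaled to equal library size by the trimmed mean of M-values (TMM), and they compare libraries within a gene. Without gene lengths they do not compare the levels of different genes.

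No member passed the test in any diet comparison. By the study's rule, which asks for an adjusted p below 0.01 together with a log2 fold change beyond 1.5 in size, 0 of 10 members were called between ET and PF, where edgeR called 2.17% of the 16068 genes tested. Between ET and AD the count was 0 of 10 against 0.0127% of 15749 genes, and between PF and AD 0 of 10 against 2.05% of 15960 genes. With adjusted p below 0.05 and no fold minimum the members' counts were again 0, 0 and 0, beside 4.13%, 0.0127% and 5.17% of all genes, and DESeq2 also called 0 in each. At an unadjusted p below 0.05, edgeR and DESeq2 each counted 1 member between ET and PF, 1 between ET and AD and 0 between PF and AD. The shares of all genes at that level were 11.9%, 2.74% and 16.4% in edgeR. The member was Tlr2 in both cases.

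**Figure D1:**
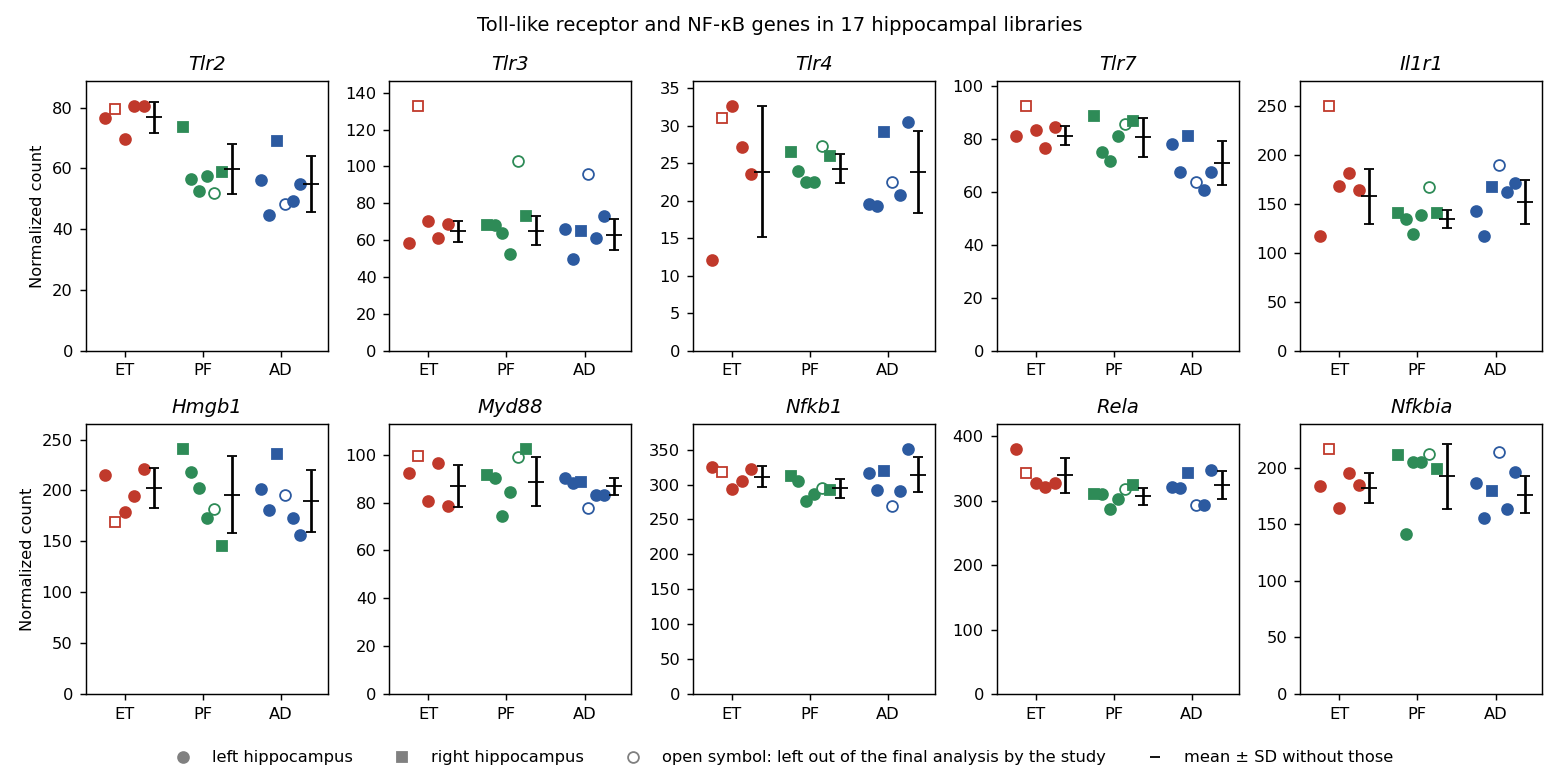
Normalized count (vertical axes, each from 0) of the 10 genes in the ET, PF and AD libraries, 1 point per hippocampus, with circles for left and squares for right hippocampi and open symbols for the 3 libraries left out by the study. Bars give the mean ± SD of the other 14. The ET points of Tlr2 lie between 69.6 and 80.7, above all AD points, and the other genes overlap between groups.

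Tlr2, the receptor for bacterial lipoproteins, was the member with the largest difference in both comparisons of the ET group. Its normalized counts in the ET libraries were 76.4, 69.6, 80.4 and 80.7. In the PF libraries they were 73.7 in replicate 1, 56.5 in replicate 2, 52.5 in replicate 3, 57.5 in animal 11f5 and 58.7 in replicate 6. In the AD libraries they were 56.3, 44.7, 69.0, 49.1 and 54.7. Every ET library therefore lay above every AD library, while PF replicate 1 lay within the ET range. The libraries left out had 79.4 (ET), 51.8 (PF) and 48.3 (AD), so that these statements hold over all 17 as well. Of all genes tested, 0.762% were likewise higher in ET than in AD without overlap over the 14 libraries, and 0.387% over the 17.

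The mean was 76.8 ± 5.16 in ET (SD, n = 4), 59.8 ± 8.11 in PF (n = 5) and 54.8 ± 9.19 in AD (n = 5). The log2 fold change of ET against PF was 0.35 (SE 0.11, 95% interval 0.11 to 0.60), a 1.28-fold difference, with an edgeR p of 0.0096 and an adjusted p of 0.16. Against AD it was 0.49 (SE 0.13, 95% interval 0.20 to 0.78), 1.40-fold, with an edgeR p of 0.0035. That p ranked 40 among 15749 genes and its adjusted value was 1.00. PF and AD differed by a log2 fold change of 0.14 (95% interval -0.15 to 0.43, edgeR adjusted p = 0.68), with 0.052 without PF replicate 1 and 0.24 without AD replicate 3. Since ET is shared by both comparisons, they do not count as separate evidence.

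Whether Tlr2 passed the second rule, an adjusted p below 0.05, between ET and PF depended on which libraries entered. With all 17 libraries the log2 fold change of ET against PF was 0.40 and the edgeR adjusted p 0.031, which passed the second rule. It was 0.44 without PF replicate 1, with an edgeR adjusted p of 0.036, and between 0.32 and 0.44 when each library was left out in turn. Right hippocampi gave the highest Tlr2 values of the PF group (73.7 and 58.7) and of the AD group (69.0). In left hippocampi alone, the ET libraries (69.6 to 80.7, n = 4) lay above the PF (52.5 to 57.5, n = 3) and the AD libraries (44.7 to 56.3, n = 4). In all genes tested, 5.85% were higher in ET than in PF without overlap in these libraries and 1.36% higher in ET than in AD. The edgeR log2 fold changes were then 0.46 against PF (adjusted p = 0.055) and 0.58 against AD (adjusted p = 0.49).

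Tlr2 is a gene of microglia and other macrophages in the brain, and in whole tissue more cells of a type and more RNA per cell cannot be told apart. The summed normalized count of 10 microglia markers was 4075 to 4455 in ET, 3973 to 4870 in PF and 3523 to 4233 in AD over the 17 libraries, and these ranges overlap. PF replicate 1, with the highest Tlr2 of its group, also had the highest microglia sum of all. Per 1000 microglia marker counts, Tlr2 stood at 16.3 to 19.2 in ET, 12.6 to 15.1 in PF and 12.7 to 18.1 in AD. On that scale no PF library reached the ET range, and AD replicate 3, a right hippocampus, was the AD library inside it at 18.1. This scale was chosen after the values were seen, and 0.822% of all genes were higher in ET than in PF without overlap on it. The sums of 5 border macrophage markers were 116 to 242 in ET, 149 to 247 in PF and 74.8 to 214 in AD, with no group apart. Those of 5 neutrophil and T cell markers were 88.5 to 138 in ET, 26.5 to 109 in PF and 64.4 to 203 in AD, and over the 14 libraries ET (88.5 to 102) lay below AD (110.1 to 203). Cd3e (19.7 to 194) made up most of that sum, and the T cell genes Cd3g and Cd8a stayed at 0 to 2.22 and 0 to 1.34 in all 17 libraries. Summed over 6 thalamus markers, the 14 libraries held 1468 to 2632 in ET, 1100 to 1662 in PF and 1560 to 1765 in AD, so that ET and PF overlapped and the 2 highest sums were in ET. The part of these cells and of thalamus in the Tlr2 difference was not tested beyond these values.

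**Figure D2:**
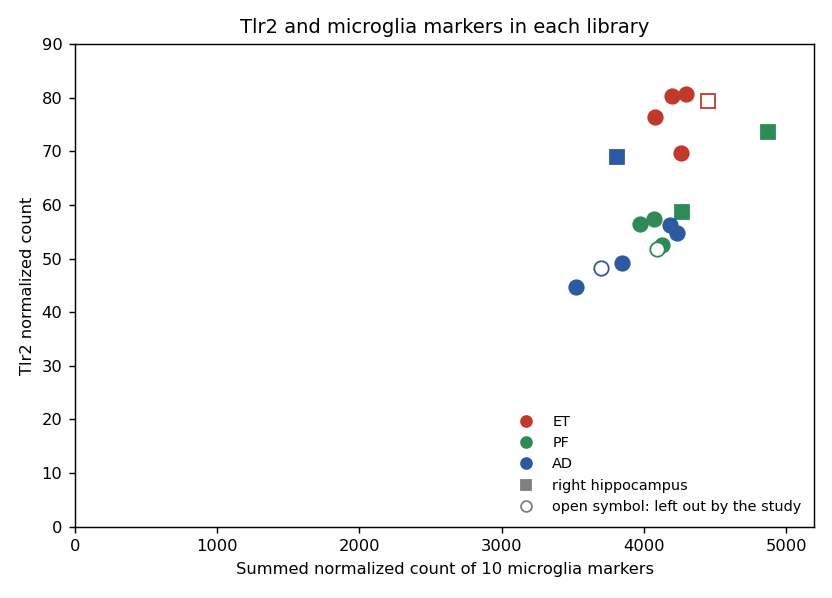
Tlr2 normalized count (vertical axis) against the summed normalized count of 10 microglia markers (horizontal axis) in each of the 17 libraries, both axes from 0, with squares for right hippocampi and open symbols for libraries left out by the study. ET libraries lie at 69.6 to 80.7 for Tlr2 at marker sums of 4075 to 4455, and PF replicate 1 lies farthest right at 4870.

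The other receptors showed no difference past the test. Tlr7, an X-linked endosomal sensor of single-stranded RNA that is also a microglial gene, was 76.5 to 84.5 in ET (n = 4), 71.8 to 89.0 in PF (n = 5) and 61.0 to 81.1 in AD (n = 5). Its log2 fold change was 0.01 for ET against PF, 0.19 for ET against AD (95% interval -0.04 to 0.41) and 0.17 for PF against AD (95% interval -0.04 to 0.39). Both liquid-diet groups thus had higher means (81.4 and 80.8) than AD (71.2), within the spread of the libraries. Tlr4, the receptor for lipopolysaccharide, was among the least counted members at 12.1 to 32.7 over the 14 libraries. ET replicate 1 held the 12.1, less than any other library. The ET interval of Tlr4 was the widest of all, with a log2 fold change against PF of -0.02 (95% interval -0.53 to 0.49) and against AD of 0.02 (-0.57 to 0.61).

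Tlr3, the endosomal receptor for double-stranded RNA, was 58.7 to 70.2 in ET, 52.6 to 73.0 in PF and 49.9 to 73.2 in AD, nearly the same range in each. All 3 of its diet intervals hold 0, with log2 fold changes of -0.01, 0.04 and 0.06. The 3 libraries rich in choroid plexus stood apart for this gene. They held 133 (ET replicate 2), 103 (PF animal 11f6) and 95.8 (AD replicate 4), above the 49.9 to 73.2 of the other 14, a ratio of means of 1.72. Nfkbia was also higher in them without overlap, by a narrow margin (212.0 to 217.0 against 141.7 to 211.0, ratio of means 1.17), and 3.79% of 16265 genes were higher in these libraries without overlap. Il1r1 was higher on average with overlap (167 to 250.0 against 117 to 181, ratio 1.37). For Tlr2, Tlr4, Tlr7, Hmgb1, Myd88, Nfkb1 and Rela the ratio lay between 0.933 and 1.12. Among the other 14, ET replicate 1 and PF replicate 2 had the highest choroid plexus sums (15175 and 16458), with Tlr3 at 58.7 and 68.3, inside the range of the rest. Since these 3 libraries were set aside for their expression profile, no test was made. Tlr3 overlaps LOC134482381 in the GRCr8 list, a gene that is not in the count table.

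**Figure D3:**
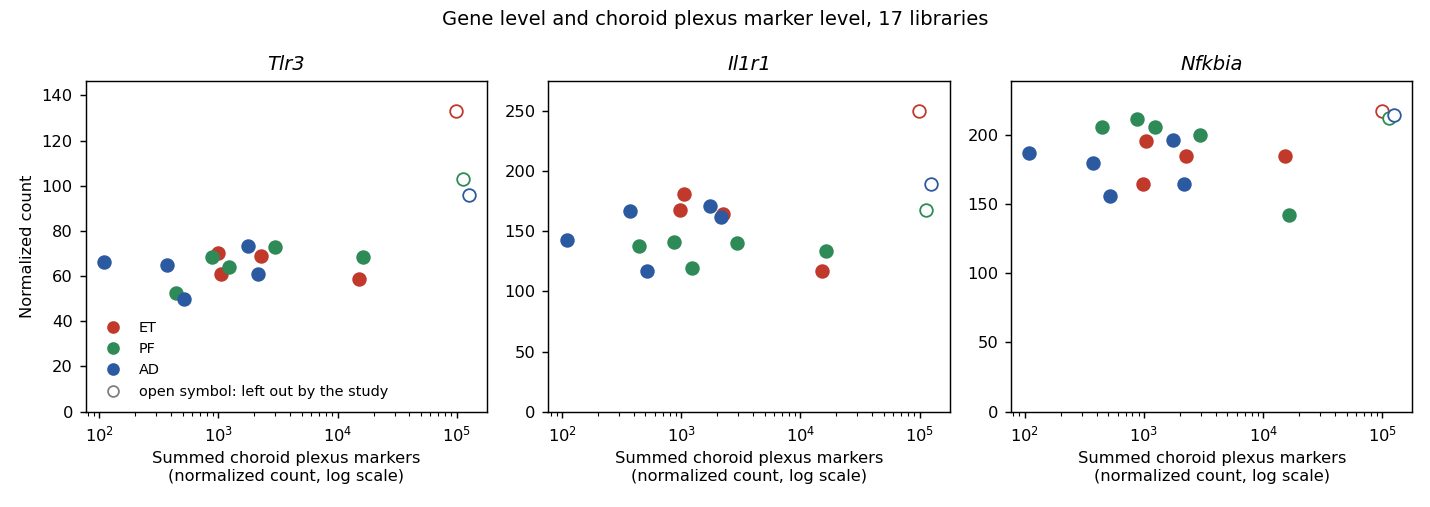
Normalized count of Tlr3, Il1r1 and Nfkbia (vertical axes, from 0) against the summed normalized count of 10 choroid plexus markers (horizontal axes, log scale) in the 17 libraries, coloured by diet, with open symbols for the libraries left out by the study. The open points, at 98604 marker counts or more, hold the 3 highest Tlr3 values (95.8 to 133).

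Il1r1 encodes the signalling receptor for interleukin-1, which uses the same adaptor as the Toll-like receptors. Its normalized counts were 117, 168, 181 and 164 in ET. They were 141, 134, 119, 138 and 140 in PF, and 143, 117, 167, 162 and 171 in AD. The ET range overlapped the PF range (117 to 181 and 119 to 141) and the AD range (117 to 171), with ET replicate 1 at the low end. PF animal 11f6, left out by the study, held 167, above ET replicate 5 at 164. The log2 fold change of ET against PF was 0.23 (SE 0.12, 95% interval -0.03 to 0.49, edgeR adjusted p = 0.52). Without ET replicate 1 it was 0.34 with an edgeR adjusted p of 0.037, so this call hinged on 1 library, which was also the lowest in Tlr4. Against AD the value was 0.06 (95% interval -0.27 to 0.38), and PF against AD gave -0.17 (95% interval -0.40 to 0.06). The latter was -0.26 without AD replicate 2 (edgeR adjusted p = 0.13) and -0.12 without AD replicate 6, the library with the high pineal sum.

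Hmgb1 encodes a nuclear protein that acts as a danger signal through Toll-like receptors once released, a step its transcript level does not show. It was 179 to 221 in ET, 145 to 241 in PF and 156 to 236 in AD, with log2 fold changes of 0.05, 0.09 and 0.05 in the order ET against PF, ET against AD and PF against AD. The gene has many near-identical copies in the rat. The GRCr8 list names 23 genes or pseudogenes after it, of which 1 is in the count table, so its counts are uncertain to the extent that reads from copies were assigned to it.

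Myd88, the shared adaptor, had close means in the diet groups, at 87.0 ± 8.88 (SD, n = 4), 88.8 ± 10.2 (n = 5) and 86.8 ± 3.41 (n = 5) in ET, PF and AD. Its log2 fold changes were -0.03, 0.00 and 0.03, and the widest of the intervals ran from -0.27 to 0.22. The gene overlaps Acaa1a in the GRCr8 list, and the strand setting of the counting is not given in the sources used here.

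The NF-kB subunits were counted at higher values and with narrower intervals than the receptors. Rela, which encodes p65, was 381, 327, 322 and 328 in ET. It was 310, 311, 288, 302 and 324 in PF, and 321, 321, 343, 293 and 347 in AD. The lowest ET library (322) lay just below the highest PF library (324, a right hippocampus), and in left hippocampi the groups did not overlap (322 to 381 against 288 to 311), as was so for 5.85% of all genes tested. The log2 fold change of ET against PF was 0.15 (SE 0.07, 95% interval -0.01 to 0.30), a 1.11-fold difference that did not pass the test (edgeR adjusted p = 0.47). It was 0.082 without ET replicate 1, the library with 381, and up to 0.17 without another library. Against AD it was 0.06 (95% interval -0.11 to 0.23). Nfkb1, which encodes the p105 precursor of p50, was 294 to 325 in ET, 277 to 312 in PF and 291 to 351 in AD. Its log2 fold changes were 0.08, -0.02 and -0.09, each with an interval that holds 0. AD replicate 6 was the library with the high pineal sum. Of the AD libraries kept by the study, it held the highest Nfkb1 (351), Rela (347), Il1r1 (171) and Tlr4 (30.4). It was also the highest of them in Tlr3 (73.2) and Nfkbia (196). AD replicate 4, left out by the study, held more Il1r1 (189), Tlr3 (95.8) and Nfkbia (214). Without AD replicate 6, ET against AD was 0.030 for Nfkb1, 0.088 for Rela, 0.11 for Il1r1 and 0.12 for Tlr4. The part of pineal tissue in these values was not tested.

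Nfkbia encodes IkB-alpha, the inhibitor that NF-kB induces. It was 184, 164, 195 and 185 in ET, 211, 142, 205, 205 and 199 in PF, and 187, 156, 179, 164 and 196 in AD. PF replicate 2 stood apart at 142, below every library of the other groups too. The log2 fold changes were -0.08 (95% interval -0.34 to 0.18) for ET against PF, 0.05 (-0.15 to 0.24) for ET against AD and 0.13 (-0.12 to 0.37) for PF against AD. Without PF replicate 2 they were -0.17 for ET against PF (edgeR adjusted p = 0.48) and 0.22 for PF against AD (edgeR adjusted p = 0.19), and without another library they reached -0.031 and 0.083. With the 14 libraries all 3 intervals hold 0, and the groups overlapped in every pair.

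**Figure D4:**
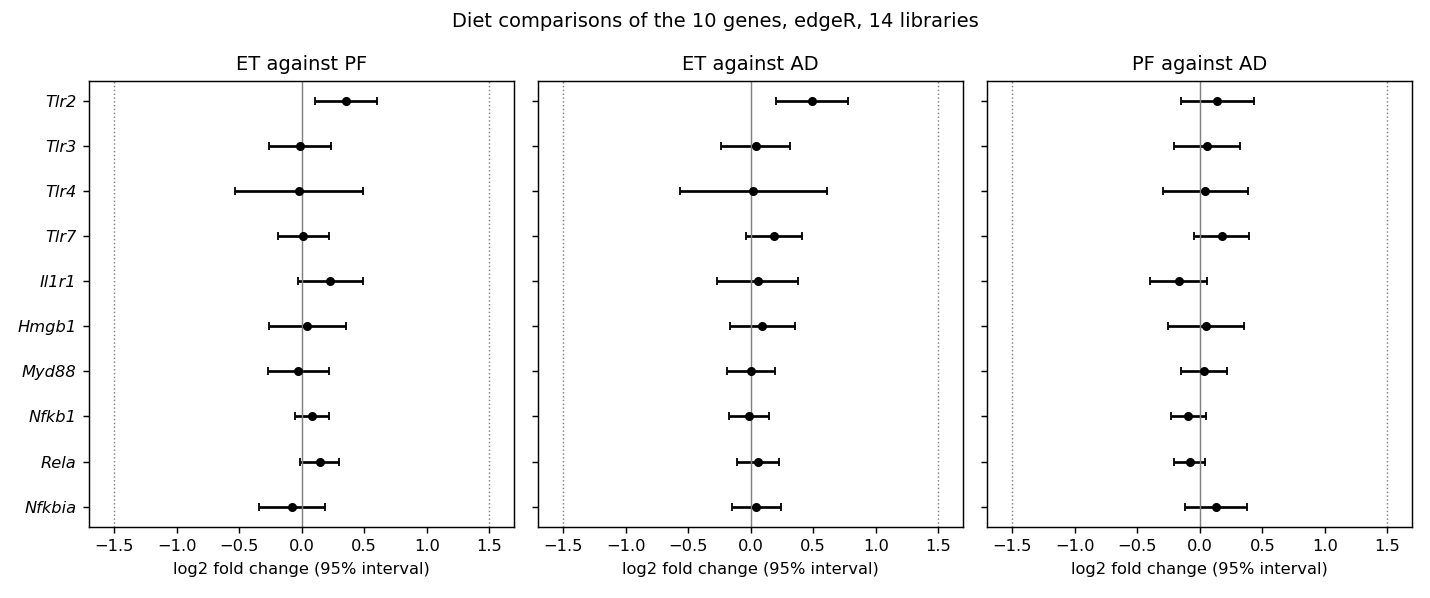
Log2 fold change (point) and 95% interval (bar) of the 10 genes in the comparisons ET against PF, ET against AD and PF against AD, from edgeR on 14 libraries, with dotted lines at the study's limit of 1.5 either way. The Tlr2 intervals against PF (0.11 to 0.60) and AD (0.20 to 0.78) lie above 0 and all other intervals hold 0.

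The precision of these values sets what could have been seen. Of the 30 intervals of the members over the 3 diet comparisons, 28 hold 0 and 27 lie within a 1.5-fold change in either direction. Their half-widths ran from 0.12 to 0.59 on the log2 scale, with a median of 0.25. The exceptions to the 1.5-fold limit were Tlr2 in both ET comparisons, up to 1.51-fold against PF and 1.71-fold against AD, and Tlr4 in ET against AD, from 0.674-fold to 1.52-fold. The median log2 fold change of the members was 0.03 for ET against PF, 0.05 for ET against AD and 0.05 for PF against AD, beside 0.0053, 0.0028 and -0.0029 over all genes tested.

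No member passed the test between the sexes either. In the ET and PF libraries, 0 of 10 members were called between males and females at an adjusted p below 0.05 by edgeR, where 0.0425% of 16484 genes were. DESeq2 called 0 and neither tool counted a member at an unadjusted p below 0.05, where edgeR had 1.9% of all genes. Tlr7, which lies on the X chromosome, was 76.5 to 86.9 in males and 71.8 to 89.0 in females of these groups (log2 fold change of males against females 0.03, 95% interval -0.19 to 0.25). For the interaction of sex and diet, edgeR called 0 of 10 members and 0% of all genes, and DESeq2 also called 0 members. At an unadjusted p below 0.05 the interaction counted 1 member in edgeR and 0 in DESeq2, beside 1.4% of all genes in edgeR. That member was Hmgb1, at 145 and 173 in PF males, 202 to 241 in PF females, 194 and 221 in ET males and 179 and 216 in ET females. PF males (n = 2) lay below PF females (n = 3), as was so for 8.4% of all genes, and in ET the sexes overlapped. The interaction was 0.55 on the log2 scale (SE 0.20, edgeR adjusted p = 1.00), and it was 0.38 with all 17 libraries and 0.36 in left hippocampi.

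The other genes of the pathway were taken from a list of 84 in 7 roles. Of these, 56 passed the filter on low counts in the diet comparisons, among them all 19 adaptors and kinases and all 6 NF-kB and IRF factors. In contrast, 7 of 15 receptors and co-receptors and 4 of 15 NF-kB target genes passed. The missing ones included cytokine genes. Il6, Cxcl2, Il1r2, Tlr10 and Tlr11 had at most 3 counts in each of the 17 libraries, and Il1b (1.04 to 6.45) and Tnf (1.82 to 5.53) were close to that floor and did not pass the filter, so they were not tested.

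None of the 56 genes passed an adjusted p of 0.05 in any diet comparison by edgeR or DESeq2. At an unadjusted p below 0.05, edgeR counted 1, 1 and 7 of them in ET against PF, ET against AD and PF against AD, and DESeq2 2, 0 and 5. The shares of all genes at that level, given above, are 11.9%, 2.74% and 16.4%. The following genes were named after their values were seen. Rel, which encodes the NF-kB subunit c-Rel, was 64.2 to 82.1 in ET, 66.6 to 104 in PF and 55.8 to 76.4 in AD over the 17 libraries. Its log2 fold change was -0.30 for ET against PF (edgeR adjusted p = 0.30) and 0.30 for PF against AD (adjusted p = 0.13), 2 comparisons that share the PF libraries. The inhibitors Nfkbib and Nfkbie differed the other way between PF and AD, by -0.26 and -0.23 (edgeR adjusted p = 0.19 and 0.20). Cd180, a microglial and B cell relative of the Toll-like receptors, differed by 0.34 and Irf5, a transcription factor downstream of them, by 0.14 between PF and AD. The chaperones Hspd1 and Hsp90b1 differed by -0.18 and -0.11 in that comparison. Between ET and AD the gene was Il1rap, the co-receptor of Il1r1, at a log2 fold change of 0.17.

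The 2 genes with the most counts in each role were as follows over the 17 libraries. Among receptors and co-receptors, Unc93b1, which carries the endosomal receptors to their place, was 82.4 to 108 in ET, 83.2 to 111 in PF and 81.4 to 110.1 in AD, and Cd180 had medians of 68.6, 73.1 and 53.5, with 62.4 to 84.6 in PF against 46.8 to 65.5 in AD. In the interleukin-1 family, Il1rap was 1031 to 1258, 906 to 1242 and 939 to 1135, and Il33 469 to 518, 415 to 581 and 420.0 to 490.3, in the same order. The ranges of Unc93b1, Il1rap and Il33 overlap between all groups.

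Among adaptors and kinases, Irak1, the kinase that MyD88 recruits, was 1588 to 1735 in ET, 1733 to 1853 in PF and 1551 to 1771 in AD, and its log2 fold change of ET against PF was -0.10 (edgeR adjusted p = 0.50). Traf3 was 1084 to 1333, 1275 to 1526 and 1262 to 1671. Among factors, Irf3, which drives interferon genes, was 256 to 337, 269 to 441 and 261 to 379, and Irf5 141 to 163, 150.3 to 168 and 131 to 162. For each of these 4 genes the PF group had the highest mean of the 17 libraries, and none passed the test.

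The danger ligands Hsp90b1 and Hspd1 were 5264 to 5744 and 467 to 522 in ET, 4688 to 5382 and 420.4 to 536 in PF, and 5213 to 5721 and 514 to 567 in AD. The inhibitors Tollip and Cyld ranged from 2569 to 2969 and from 1059 to 1416 over all 17 libraries. Of the NF-kB target genes, Sod2, the mitochondrial superoxide dismutase, ranged from 1499 to 1781 and Vcam1, an adhesion molecule of activated endothelium, from 610 to 795. All groups overlapped in these 6 genes.

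By role, the median log2 fold change lay between -0.10 and 0.04 for ET against PF, between -0.04 and 0.02 for ET against AD, and between -0.06 and 0.18 for PF against AD. The highest of these was that of the 7 receptors and co-receptors in PF against AD, of which 6 were above 0. Over the 56 genes the medians were -0.04, -0.01 and 0.02.

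**Figure D5:**
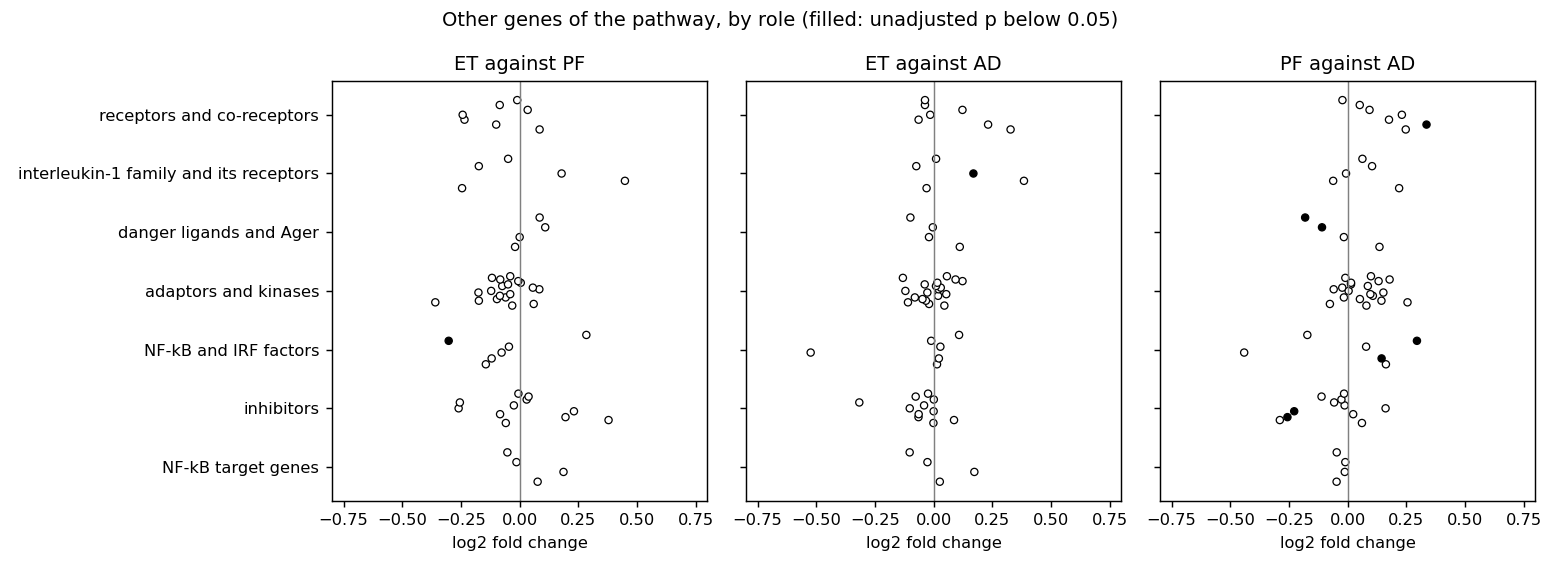
Log2 fold change (horizontal axes) of the other pathway genes, 1 point per gene in rows by role, in the comparisons ET against PF, ET against AD and PF against AD. Filled points have an unadjusted edgeR p below 0.05, and they number 1, 1 and 7 of 56.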

How the data were processed

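Total hippocampal RNA was sequenced as paired-end stranded mRNA libraries. Per the study's methods and the labels, the authors trimmed reads with fastp, aligned them with Bowtie2 (2.4.2) to mRatBN7.2 and counted them per gene with featureCounts (2.0.1) at a mapping quality of at least 10, with fragments that meet several features allowed. The deposited values are expected counts, the average over 3 technical replicates per animal. The annotation release and strand setting are not given in the sources used here. PF columns for replicates 4 and 5 are named by animal and were not matched to a replicate number.

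The counts were rounded and analysed with edgeR 4.0.16 in R 4.3.3 (filterByExpr, TMM, quasi-likelihood test), with the groups compared fitted as a pair over all genes, without the 3 libraries the study left out, and with Benjamini-Hochberg adjustment over all genes tested. Standard errors are the fold change over the root of F. Because an averaged count stands for 3 runs, sums over the runs were an alternative. Others were DESeq2 1.42.0, median-of-ratios scaling, no filter, all 17 libraries, left hippocampi, 1 fit of all groups, sex as a covariate, a replicate block and leaving out each library. The pipeline was tested on simulated data. All 40 pairs of libraries within a group differed by more than sampling noise (smallest chi-square per gene 3.05).

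Named were all 10 members, pathway genes past an adjusted p of 0.05, the 2 with the highest mean count in each role, and genes overlapping a member. Pathway genes at an unadjusted p below 0.05 were named after their values were seen. The members and lists were chosen with earlier results of these data known. Of 34322 symbols, 27234 were matched to the GRCr8 gene list. The authors' fold changes and p-values were not used.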

Additional observations from a re-analysis of the deposited data

Results flagged for a closer look

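In 30 groups of 5 or 6 libraries (10 genes in 3 diets), 3 held a library far from the others by Dixon's 95% limit, where chance flags about 1 group in 20. Tlr2 in PF replicate 1, a right hippocampus, was 73.7 and the next PF library 58.7, a gap of 0.681 of the group's range. The sum of 10 microglia markers was also highest in that library, at 4870, and their part in the value was not tested. Tlr3 in ET replicate 2 was 133 and the next ET library 70.2, a gap of 0.845 of the range. That library is among the 3 with choroid plexus marker sums of 98604 to 125582. Nfkbia in PF replicate 2 was 142 and the next PF library 199, a gap of 0.822 of the range.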

How the results depend on the processing

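Of 560 member fold changes under an alternative, 502 kept their direction and their side of the threshold, 55 changed sign (0 with an unadjusted p below 0.05 in either fit), 3 newly passed an adjusted p of 0.05 and 0 were lost. The 3 were Tlr2 in ET against PF with all 17 libraries (edgeR adjusted p = 0.031) and without PF replicate 1 (0.036), and Il1r1 without ET replicate 1 (0.037). Members called in ET against PF were thus 1 with all 17 libraries and 0 to 1 when a library was left out. Without each library in turn, Tlr2 ranged from 0.32 to 0.44 against PF and from 0.41 to 0.58 against AD.

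Replicate numbers name different animals of different litters and do not pair them. Deviations of same-numbered libraries correlated at -0.01 to 0.64 (2 pairs, ET and PF), -0.29 to 0.13 (3 pairs, ET and AD) and -0.03 to 0.08 (4 pairs, PF and AD). A replicate block also dropped PF animal 11f5, which has no replicate number. ET against PF thus had 8 libraries, against 9 in the main fit. With the block, Tlr2 was 0.21 against PF (edgeR adjusted p = 0.89) and 0.38 against AD, and 0 members were called. With the block and without 11f5, calls over all genes in ET against PF went from 664 to 359 at adjusted p below 0.05. By the study's rule they went from 349 to 197. The block and the dropped library were not fitted apart. In ET against AD, with the same 9 libraries, calls by that rule went from 2 to 0 under the block. Calls in ET against AD at adjusted p below 0.05 were 11 with DESeq2, 6 with all 17 libraries, 5 with 1 fit of all groups and 2 to 4 without a library. Calls in PF against AD by the study's rule were 493 with no filter, against 327, and those for the interaction 0 to 1 without a library. The cause was not tested.

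Signs changed in these values, all short of the test, on the log2 scale. In ET against PF, Tlr3 was 0.12 and Tlr4 0.030 with 17 libraries, Tlr3 0.065, Tlr4 0.051 and Myd88 0.067 in left hippocampi, and Hmgb1 -0.17 and Myd88 0.058 under the block. In ET against AD, Nfkb1 was 0.024 with 17 libraries, Myd88 -0.0026 with sums, and Tlr4 -0.055, Il1r1 -0.079, Myd88 -0.056 and Nfkb1 0.022 under the block. In PF against AD, Tlr3 was -0.0068 and Myd88 -0.053 in left hippocampi. Without each library in turn, ET against PF ranged from -0.079 to 0.031 for Tlr3, -0.22 to 0.19 for Tlr4, -0.019 to 0.051 for Tlr7, -0.044 to 0.13 for Hmgb1 and -0.076 to 0.030 for Myd88. ET against AD ranged from -0.039 to 0.10 for Tlr3, -0.18 to 0.23 for Tlr4, -0.031 to 0.17 for Il1r1, -0.048 to 0.047 for Myd88, -0.042 to 0.030 for Nfkb1, -0.0027 to 0.088 for Rela and -0.00026 to 0.095 for Nfkbia. PF against AD ranged from -0.024 to 0.12 for Tlr3, -0.029 to 0.14 for Tlr4, -0.036 to 0.14 for Hmgb1 and -0.023 to 0.084 for Myd88, and males against females from -0.012 to 0.070 for Tlr7. Il6 had at most 3 counts in each library, and no difference in it could be tested at this depth.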
